A study of Mus musculus with 4 samples.

Results

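The cells described here carried myelin transcripts and perineurial transcripts in the same droplet, and are called double-positive cells. They came from the GFP+ libraries of a single-cell RNA-Seq study of mouse hindlimb muscle, in which cells that express GFP from the S100B promoter (S100GFP-tg mice) were sorted from cells without GFP. A cell was a member when it had a UMI of at least 4 of 8 myelin genes (Ncmap, Cldn19, Mag, Mal, Pllp, Prx, Egr2 and Fxyd3), when these 8 made up at least 0.1% of its UMIs, and when at least 3 of 6 perineurial genes (Cldn1, Krt19, Moxd1, Slc6a13, Lgals7 and Crabp2) were detected. The rule found 583 cells among 11058 GFP+ cells, and among 18153 cells in all 4 libraries. Those measured values chose the members, so high levels of the 14 genes describe the choice and are not results.

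Each library came from the tibialis anterior and gastrocnemius muscles of 1 pool of 4 male mice, 2 months old and of a single genotype. The GFP+ and GFP- sorts of propidium iodide-negative cells were made from S100GFP-tg mice with wild-type Sod1 (WT) and from S100GFP-tg mice lacking Sod1 (Sod1-/-, here Sod1KO). Sod1-/- mice lack the cytosolic superoxide dismutase and lose and regain muscle innervation without surgery. Every group was a single library, so no test between groups was possible and the mice of a pool cannot be separated. The 95% intervals given here cover counting error only, and cells of 1 library are not replicates of a genotype.

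Peripheral nerve fascicles are wrapped by the perineurium, layers of flattened cells sealed by tight junctions that, with a basement membrane, form part of the blood-nerve barrier. Myelinating Schwann cells lie inside the fascicle and wrap axons with membrane made of proteins such as MBP and PMP22. During development, Schwann cells secrete desert hedgehog (Dhh), and perineurial cells, which carry the receptor Ptch1 and the effector Gli1, depend on that signal to form their sheath.

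The 4 libraries held 1665 to 6291 cells after the filter, with a median of 8275 to 15273 UMIs per cell. Pairs of libraries shared 1 to 13 barcodes, and no member's barcode was a member in both GFP+ libraries. Sod1 itself did not separate the labels. Its level was 91.2 CPM (counts per 1000000 UMIs, 95% Poisson interval 89.1 to 93.3) in the WT GFP+ library and 97.2 CPM (95.3 to 99.2) in the GFP+ library labelled Sod1KO. Within double-positive cells it was 100.4 and 87.5 CPM, a log2 ratio of -0.20 (-0.37 to -0.03). The sources used here do not say whether the counted 3′ tag lies outside the deleted part, so Sod1KO below names the library by its label.

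Double-positive cells were 343 of 4767 cells in the WT GFP+ library, or 7.20% (Clopper-Pearson 95% interval 6.48 to 7.97). In the Sod1KO-labelled GFP+ library they were 240 of 6291, or 3.81% (3.36 to 4.32). The share was therefore 3.38 percentage points smaller (Sod1KO minus WT, -3.38, Newcombe interval -4.27 to -2.52). All cells that met the myelin criteria of the rule were also a smaller share, at 31.5% in WT and 16.3% in Sod1KO. Among these myelin-gene cells the double-positive share was 22.9% (20.7 to 25.1) in WT and 23.3% (20.8 to 26.1) in Sod1KO, which differ by 0.495 points with an interval from -2.82 to 3.87. This last difference depended on the setting, and was 11.3 points (5.85 to 16.7) with a stricter cell filter and -5.68 (-8.77 to -2.48) without a sub-cluster of members described further on. Cells below the myelin criteria with at least 3 perineurial genes detected, Cldn1 among them, formed the perineurial reference. Membership did not require Cldn1, which was detected in 99.4% of WT and 99.2% of Sod1KO members. The perineurial reference went the other way, with 61 cells (1.28%) in WT and 280 (4.45%) in Sod1KO. A share depends on the rest of the sorted library, so fewer cells of a kind and more cells of other kinds cannot be told apart. In WT there were more double-positive cells than perineurial reference cells, and in Sod1KO fewer.

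The GFP- libraries held almost no members. There were 0 of 1665 cells in WT, which allows a share of up to 0.180%, and 1 of 5430 in Sod1KO (0.0184%). Few cells there met the myelin criteria, 7 and 6, while 12 and 123 met the criteria of the perineurial reference. The sort was made on S100B-driven GFP, and its part in these shares was not tested.

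Among myelin-gene cells the number of perineurial genes detected formed a low group and a high group at the depth of the libraries, but not after thinning. In WT, 1040 of 1501 had none, 90 had 1, 28 had 2 and 46 had 3, and then 100 had 4, 130 had 5 and 67 had all 6. In Sod1KO the counts from none to all 6 were 711, 55, 22, 17, 49, 83 and 91 of 1028. The fewest cells stood at 2 genes in WT and at 3 in Sod1KO, at either side of the threshold. With each cell thinned to 2000 UMIs the counts fell with the number of genes and showed no high group in WT, at 1123, 160, 108, 73, 22, 4 and 1 of 1491 cells. In Sod1KO they were then 776, 82, 86, 41, 24, 5 and 1 of 1015, level between 1 and 2 genes and falling from there. Just inside it, the 46 and 17 cells with 3 genes spent a median of 0.280% and 0.294% of their UMIs on 13 further perineurial genes that the rule did not use. Just outside, the 28 and 22 cells with 2 genes spent 0.148% and 0.126%. On the myelin side, 5 WT and 33 Sod1KO cells with at least 4 myelin genes and 3 perineurial genes fell just short, at 0.05% to 0.1% of UMIs.

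**Figure D1:**
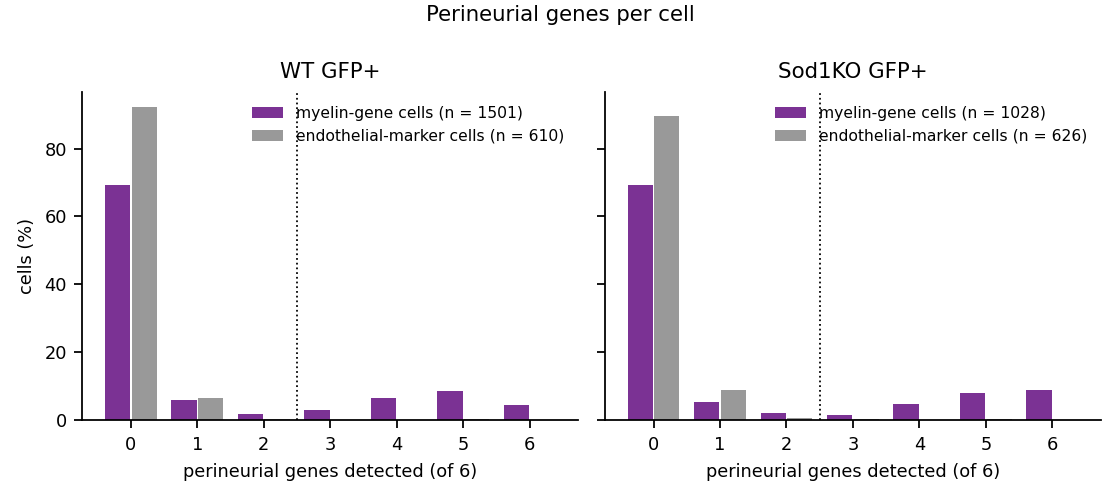
Percent of cells (vertical axis) by the number of the 6 perineurial genes detected (horizontal axis), without thinning, for myelin-gene cells and for endothelial-marker cells below the myelin criteria (610 in WT, 626 in Sod1KO), in each GFP+ library, with a dotted line at the rule's threshold. Myelin-gene cells fall to 1.87% at 2 genes in WT and 1.65% at 3 genes in Sod1KO and stand at 8.66% and 8.07% at 5 genes, while 0.820% and 0.958% of endothelial-marker cells have 3 or more.

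Detection of a gene depends on depth and on free RNA in the droplets, so the same count in another cell type stands beside these. Cells with at least 4 of 8 endothelial markers, a type that should lack both programmes, met the full rule in 6 of 631 cases in WT (0.951%, 0.350 to 2.06) and 7 of 643 in Sod1KO (1.09%, 0.439 to 2.23). Their median depth was 15280 and 14702 UMIs, against 18821 and 21819 in double-positive cells.

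Perineurial genes outside the rule were then read in cells thinned to 2000 UMIs. Tenm2, a teneurin adhesion receptor, was detected in 79.3% and 83.3% of WT and Sod1KO double-positive cells, in 4.27% and 4.13% of myelin-only cells and in 0.691% and 1.16% of endothelial-marker cells. Klf5, a transcription factor of barrier epithelia, was detected in 51.3% and 42.1% of double-positive cells and in 1.31% and 1.03% of myelin-only cells. Both genes are also among those of highest ratio over all other GFP+ cells, given below. Slc2a1 and Itgb4 differed less. Slc2a1 was detected in 42.9% and 40.8% of double-positive cells and 10.0% and 8.52% of myelin-only cells. For Itgb4 these shares were 39.7% and 31.7%, and 17.1% and 14.6%. Perineurial reference cells had Tenm2 in 78.3% and 72.8%. Mbp, which encodes the basic protein that compacts the myelin sheath, was found in 98.0% and 89.2% of double-positive cells but in 13.3% and 10.4% of perineurial reference cells.

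Double-positive cells were deeper than either reference. The rule itself favours deep cells, since members need detected genes of both kinds. With cells thinned to 2000 UMIs before the rule, members fell from 22.9% to 5.33% of myelin-gene cells in WT. In Sod1KO they fell from 23.3% to 5.18%. The part of the rule in the depths below was not tested. The members had a median of 18821 UMIs in WT and 21819 in Sod1KO. Myelin-only cells, which met the myelin criteria of the rule without the perineurial criterion, had medians of 6349 and 6556, and perineurial reference cells 11523 and 18904. The members thus had 2.96 and 3.33 times the UMIs of myelin-only cells, and 1.05 and 0.857 times the sum of both reference medians. By means the members were below the references' sum, at 20103 against 26682 UMIs in WT and 24429 against 30922 in Sod1KO. They had a median of 5138 and 5501 genes detected, against 2489 and 2524 in myelin-only cells. Their mitochondrial share of UMIs was 3.59% and 3.62%, between the 4.94% and 5.86% of myelin-only cells and the 3.12% and 2.78% of perineurial reference cells.

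A doublet is a droplet that held 2 cells. Doublets were kept here, because the rule of membership names none, whereas the study removed doublets before its analysis. In a score that gives the share of simulated doublets among 50 neighbours of each cell, the median was 36.0% and 38% in WT and Sod1KO double-positive cells, against 22.0% and 34.0% in perineurial reference cells, 16.0% and 10.0% in myelin-only cells, and 22.0% and 20.0% over all cells of each library. Removing the highest scores at 0.8% per 1000 barcodes took out 36 of 343 (10.5%) and 40 of 240 (16.7%) members. It took out 14.8% and 11.1% of perineurial reference cells, 5.09% and 7.87% of myelin-only cells, and 4.41% and 5.82% of all cells. The part of doublets in the values of this report was not tested.

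The members carried the markers that name them, as the rule requires. Mag and Ncmap, membrane proteins of myelinating Schwann cells, stood at 174 and 909 CPM in WT and 184 and 706 CPM in Sod1KO members, and Cldn1 and Moxd1 at 585 and 215 CPM in WT and 454 and 158 CPM in Sod1KO. Each member was also described by genes that the rule did not use, 20 further myelin genes and 13 further perineurial genes. Summed over double-positive cells, the 20 myelin genes stood at 19146 CPM in WT and 15165 CPM in Sod1KO. In myelin-only cells they were at 44165 and 33030.4 CPM, and in perineurial reference cells at 1942 and 2081 CPM. In UMIs per cell, which a deeper cell raises, the order of the first pair was different, with a mean of 385 and 370.5 in double-positive cells against 333 and 299.8 in myelin-only cells. The 13 perineurial genes summed to 3846 and 3616 CPM in double-positive cells, 982 and 845 CPM in myelin-only cells, and 3682 and 3140.4 CPM in the perineurial reference. Relative to the cell's RNA, the myelin programme was thus intermediate and the perineurial programme near its reference.

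**Figure D2:**
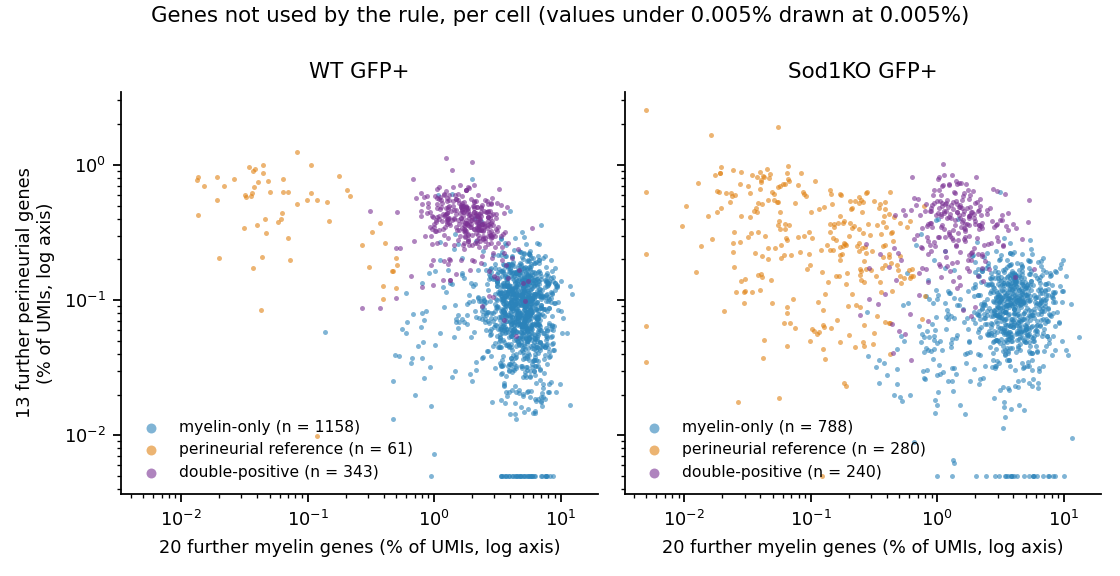
Each point is a cell, placed by the percent of its UMIs on 20 further myelin genes (horizontal, log axis) and 13 further perineurial genes (vertical, log axis), for myelin-only, perineurial reference and double-positive cells of each GFP+ library. Double-positive cells lie at the upper right, with medians of 1.85% and 0.386% in WT, beside 4.84% and 0.0837% in WT myelin-only cells.

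Within the members the 2 programmes showed at most a weak relation. Between the percent of UMIs on the 20 myelin and on the 13 perineurial genes, Pearson's r was -0.27 (Spearman's rho -0.25) over 343 WT cells and 0.04 (0.10) over 240 Sod1KO cells. These are correlations across cells that share a library and a total, given as a description. Of the UMIs on the 14 genes of the rule, the perineurial 6 took a median of 24.5% in WT members, from 8.89% at the 5th percentile to 49.5% at the 95th. In Sod1KO members the median was 30.7%, from 12.0% to 62.7%.

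Structural myelin genes showed the intermediate position one by one. Mbp was at 2115 and 1499 CPM in WT and Sod1KO double-positive cells, 4978 and 3416 CPM in myelin-only cells and 118 and 93.5 CPM in the perineurial reference. The log2 ratio of double-positive over myelin-only cells was -1.23 (-1.26 to -1.21) in WT and -1.19 (-1.22 to -1.15) in Sod1KO. Drp2, a partner of periaxin in the outer Schwann cell membrane, had ratios of -1.33 and -1.48. Sox10, the transcription factor that defines the Schwann lineage, was nearer to myelin-only cells, at 213 and 169 CPM against 369.7 and 312 CPM. Of 19 further myelin genes with enough counts, 13 were at least 2-fold lower than in myelin-only cells in both libraries (3.56% of all 7465 genes compared), and 14 were at least 2-fold higher than in the perineurial reference (3.79% of all genes). Cell choice used myelin and perineurial transcripts, so nothing is read from these counts.

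Most perineurial genes stood within 2-fold of their reference one by one, with 1 exception in WT. Slc2a1, the glucose transporter of barrier cells, was at 309.9 and 288 CPM in WT and Sod1KO double-positive cells, against 342 and 236 CPM in the perineurial reference and 49.9 and 36.6 CPM in myelin-only cells. Itgb4, the integrin chain that with Itga6 binds basement membrane laminin, was at 298 and 204 CPM, against 288 and 124 CPM in the reference. Ocln, the tight junction protein occludin, was at 32.1 and 27.5 CPM, against 33.4 and 24.7 CPM in the reference and 0.573 and 0.559 CPM in myelin-only cells. Of 12 further perineurial genes compared, 10 were at least 2-fold higher than in myelin-only cells in both libraries (8.94% of all genes). None of the 12 was at least 2-fold higher, or at least 2-fold lower (0.683% of all genes), than in the perineurial reference in both libraries. In WT alone 1 was at least 2-fold lower, Casp4, an inflammatory caspase, at 13.5 CPM against 94.2 CPM in the reference (log2 -2.80), and in Sod1KO it was at 49.0 against 66.0 CPM. The median log2 ratio to that reference was 0.05 in WT and 0.30 in Sod1KO, but -0.71 and -0.42 against a reference that required at least 4 perineurial genes, Cldn1 among them, and at most 1 myelin gene.

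The WT perineurial reference rests on 61 cells and holds transcripts of other types. Col1a1, a fibroblast collagen, was at 10894 CPM there, against 1529 CPM in WT double-positive cells and 3617 CPM in the Sod1KO reference. The 8 tenocyte markers summed to 2889 CPM, 8 mural cell markers to 2138 CPM and 8 macrophage markers to 989.7 CPM in that reference, against 620.3, 517 and 122 CPM in WT double-positive cells. Their part in the comparisons with this reference was not tested.

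**Figure D3:**
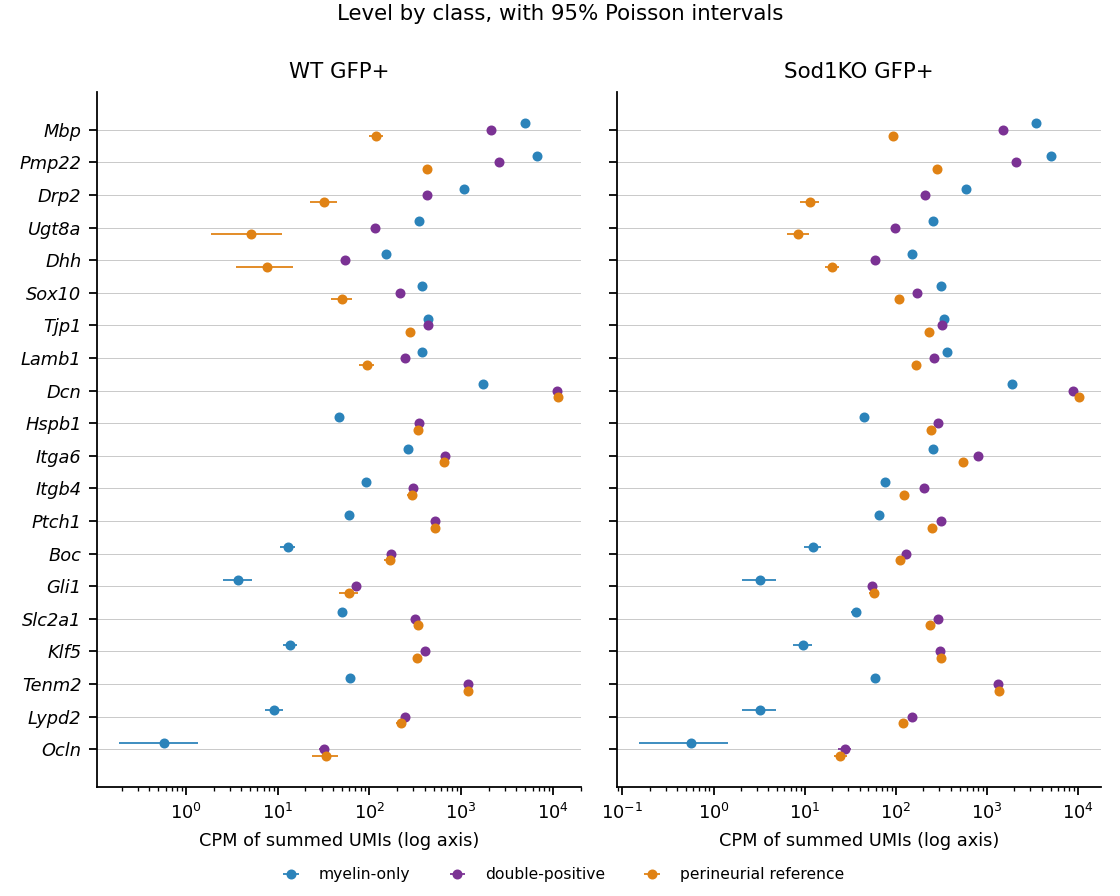
Level of 20 genes (CPM of summed UMIs, log axis) in myelin-only, double-positive and perineurial reference cells of the WT and Sod1KO GFP+ libraries, with 95% Poisson intervals. Myelin genes such as Mbp (2115 CPM in WT double-positive cells) lie between the references, and perineurial genes such as Slc2a1 (309.9 CPM in WT, against 342 CPM in the perineurial reference) lie closer to the perineurial reference than to myelin-only cells.

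Keratins other than Krt19 were nearly absent. Krt20 was at 2.47 and 1.54 CPM, Krt15 was at 0 and 0.171 CPM, and 7 of the 10 keratins examined, Krt8 and Krt18 of simple epithelia among them, had no UMI in double-positive cells of either library. Krt19, part of the rule, stood at 238 and 218 CPM.

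Genes of cell junctions divided between the references. F11r, the junctional adhesion molecule JAM-A, was at 59.9 and 38.4 CPM in double-positive cells, near the 60.8 and 36.1 CPM of the perineurial reference and above the 6.42 and 5.03 CPM of myelin-only cells. Jam3, which is found in the autotypic junctions of myelin, was at 126 and 115 CPM, between 276 and 261 CPM in myelin-only cells and 50.5 and 52.6 CPM in the perineurial reference. Tjp1, the scaffold ZO-1, was at 437 and 318 CPM, close to the 437 and 335 CPM of myelin-only cells. Cldn5, the claudin of endothelial junctions, was at 4.79 and 7.33 CPM. Of 12 junction genes compared, 3 were at least 2-fold higher than in myelin-only cells in both libraries (8.94% of all genes) and 1 at least 2-fold lower (3.56%), and 2 were at least 2-fold higher than in the perineurial reference (3.79%).

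The hedgehog pathway was present in double-positive cells as ligand and as response genes. Dhh was at 54.5 and 59.4 CPM in WT and Sod1KO, between 152 and 150.0 CPM in myelin-only cells and 7.71 and 19.9 CPM in the perineurial reference. Ptch1 was at 515 and 315 CPM, against 59.5 and 64.9 CPM in myelin-only cells and 523 and 249 CPM in the reference. Gli1 was at 71.8 and 55.1 CPM, against 3.67 and 3.22 CPM and 59.9 and 57.2 CPM. The co-receptor Boc was at 171 and 129.8 CPM, against 13 and 12.2 CPM in myelin-only cells and 166 and 110.2 CPM in the reference. Dhh transcripts were found in 57.7% and 63.3% of members, and Gli1 transcripts in 72.0% and 67.1%. After thinning to 2000 UMIs these shares were 7.0% and 11.2% for Dhh and 15.5% and 8.75% for Gli1, and Dhh was then found in 2.59% and 1.66% of endothelial-marker cells. Of 10 pathway genes compared, 6 were at least 2-fold higher in double-positive than in myelin-only cells in both libraries (8.94% of all genes), and 1, Dhh, was at least 2-fold lower (3.56%).

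Genes of cholesterol and myelin lipid synthesis lay between the references like other myelin genes. Scd2, a stearoyl-CoA desaturase, was at 715 and 607 CPM, between 1142 and 971 CPM in myelin-only cells and 374 and 305 CPM in the perineurial reference. Of 17 such genes compared, 8 were at least 2-fold higher than in the perineurial reference in both libraries (3.79% of all genes) and 2 at least 2-fold lower than in myelin-only cells (3.56%). Basement membrane genes were divided. Nid2 (nidogen 2) was at 82.1 and 115 CPM, against 20.4 and 28.4 CPM in myelin-only cells and 112 and 118 CPM in the reference, and Lamb2, a laminin beta chain, was at 195 and 209 CPM against 53.9 and 60.5 CPM and 246 and 205 CPM. Of 16 compared, 4 were at least 2-fold higher than in myelin-only cells in both libraries (8.94% of all genes). The ratio to myelin-only cells was below 0 on the log2 scale for 7 of the 16 in WT and 6 in Sod1KO, with medians of 0.23 and 0.31. None of the 16 was at least 2-fold higher (3.79% of all genes) or lower (0.683%) than in the perineurial reference in both.

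Fibroblast transcripts were below the perineurial reference and mostly above myelin-only cells. The 8 fibroblast markers summed to 13491 CPM in WT and 13397 CPM in Sod1KO double-positive cells, against 23224 and 16691 CPM in the perineurial reference and 4204 and 6584 CPM in myelin-only cells. All 5 markers compared were below the reference in both libraries, with a median log2 ratio of -0.58 in WT and -0.27 in Sod1KO. Col1a1 was also below myelin-only cells, at log2 -0.47 and -0.32. Dcn, the proteoglycan decorin, was closest to the reference, at 11157 and 8849 CPM in double-positive cells, against 1747 and 1889.5 CPM in myelin-only cells and 11341 and 10117 CPM in the perineurial reference. At least 4 of 8 fibroblast markers were detected in 72.6% and 85.0% of members, against 72.1% of WT and 252 of 280 Sod1KO perineurial reference cells and 3.63% and 7.49% of myelin-only cells. At least 4 of 8 markers of other types were rarer in members. Mural markers were met in 5.25% and 7.50%, tenocyte markers in 2.33% and 7.08%, endothelial markers in 1.75% and 2.92%, and macrophage markers in 0 and 2.50%. The muscle stem cell markers Pax7, Myf5 and Myod1 had no UMI in members of either library. The part of these cell types in the values was not tested.

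Across all genes, none was 2-fold in excess of both references in double-positive cells in both libraries, at the level filter used here. Of 7465 genes with at least 20 CPM in 1 class, 0 (0%) were at least 2-fold higher than in both references in both libraries, and 9 (0.121%) were at least 2-fold lower. With no filter beyond 3 UMIs in 1 class, 5 genes were higher (Itpka, 1700057G04Rik, Hist1h2ap, Lgi3 and Gstp2), on 14 to 121 UMIs per library. The 9 lower genes were Lmod1, Rgs5, Synpo2, Timp4, Chad, Myh11, Mylk, Rcan2 and Acta2, of which Myh11, Mylk, Lmod1 and Acta2 belong to the contractile apparatus of smooth muscle. Myh11 was at 51.5 and 42.3 CPM in double-positive cells, against 147 and 148 CPM in myelin-only cells and 372 and 129 CPM in the perineurial reference. Of its UMIs in members, 51.5% (WT) and 32.3% (Sod1KO) came from a single cell.

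Among genes above both references by less than 2-fold, Sfrp5 ranked first. Sfrp5, a secreted WNT antagonist, was at 1423 CPM in WT double-positive cells, against 760.3 CPM in myelin-only and 915 CPM in perineurial reference cells. In Sod1KO it was at 686 CPM, against 442 and 280.1 CPM. Il33, a nuclear cytokine of barrier cells, was at 239 CPM in WT, against 15.5 and 157 CPM, and at 232 CPM in Sod1KO, against 10.9 and 179 CPM. Shisa3, a WNT and FGF antagonist, was at 128 and 57.8 CPM, against 95 and 42.2 CPM in the perineurial reference. The others of the first 10 were Irf1, Mid1ip1, Pkdcc, Sec14l1, Egr3, Irf2bpl and Hlf.

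The UMIs of a double-positive cell were also set against the sum of an average myelin-only and an average perineurial reference cell. A mean double-positive cell had 20103 UMIs in WT and 24429 in Sod1KO, and the 2 references summed to 26682 and 30922. Over 7465 genes the median log2 ratio of UMIs per double-positive cell to that sum was -0.36 in WT and -0.31 in Sod1KO. It lay within 2-fold for 6891 genes (92.3%) in WT and 7319 (98.0%) in Sod1KO, and 2 genes in each library were more than 2-fold above. Most genes were also within 2-fold of 1 reference alone, by CPM. Against the perineurial reference 452 genes were at least 2-fold higher and 406 lower in WT, and 334 and 64 in Sod1KO. Against myelin-only cells these counts were 830 and 376 in WT, and 728 and 390 in Sod1KO. Without a sub-cluster of members described further on, the medians were -0.41 and -0.58, and 90.2% and 88.5% of genes lay within 2-fold. In Sod1KO 851 genes were then more than 2-fold below the sum, against 144 with all members. By the smaller of the values in both libraries, Il33 led the genes above the sum, at log2 0.62 and 0.50, and Shisa3 followed at 0.45 and 0.55. Sfrp5 was at 0.30 and 0.73.

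**Figure D4:**
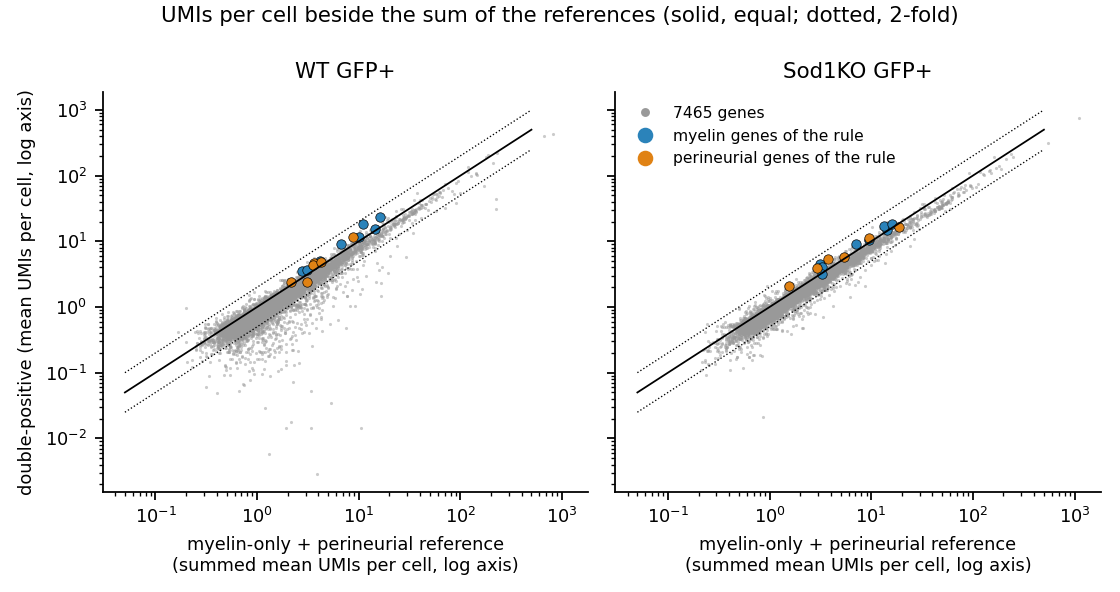
UMIs per double-positive cell (vertical, log axis) against the sum of UMIs per average myelin-only and perineurial reference cell (horizontal, log axis) for 7465 genes in each GFP+ library. Larger blue and orange points are the myelin and perineurial genes of the rule. The solid line marks equal values and the dotted lines 2-fold, and 92.3% of genes in WT and 98.0% in Sod1KO lie between the dotted lines.

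A gene's place between the references was measured in the library other than the one that made the 8-fold choice. Only genes with at least a 2-fold difference between the references in the measuring library were read, so that library shared in the choice. Genes at least 8-fold higher in perineurial reference than in myelin-only cells of 1 library, with at least 50 CPM, were read in the other library on a scale with myelin-only cells at 0 and the reference at 100. The median over 157 genes chosen in WT was 93.2 percent of the way in Sod1KO, and over 92 genes chosen in Sod1KO it was 102 percent in WT. For genes at least 8-fold higher in myelin-only cells, with the perineurial reference at 0, the medians were 35.1 percent (131 genes) and 38 percent (102 genes). The middle 50% of genes ranged from 79.2 to 109 percent and from 29.0 to 40.7 percent in the Sod1KO library.

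Over all other GFP+ cells, the 10 genes of highest ratio outside the rule were Efnb3, Lypd2, Hcn4, Mpzl2, Ctxn3, Tenm2, Gjb5, Klf5, Stra6 and Grin2b. In myelin-only cells all 10 were lower, at 0.839 to 61.0 CPM. Against the perineurial reference all 10 were within 2-fold in both libraries, so they do not set members apart from it. Their log2 ratios to it ranged from -0.41 (Stra6, Sod1KO) to 0.65 (Efnb3, Sod1KO). Efnb3, an ephrin, was at 82.1 and 61.9 CPM in double-positive cells, 2.52 and 2.38 CPM in myelin-only cells and 74.5 and 39.6 CPM in the perineurial reference. Hcn4, a pacemaker channel, was at 55.4 and 88.9 CPM, against 1.49 and 1.12 CPM and 65.1 CPM in either reference library. Gjb5, a gap junction connexin, was at 67.9 and 51.7 CPM, against 1.60 and 0.839 CPM and 44.5 and 53.1 CPM.

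When all GFP+ cells were clustered into 31 clusters, 523 of 583 members (89.7%) fell into a single cluster of 727 cells. This cluster held 342 WT and 385 Sod1KO cells, with 309 and 214 members. It also held 129 perineurial reference cells and 35 myelin-only cells. Most myelin-only cells were elsewhere, 1341 of them in a cluster of 1358 cells with 17 members. The genes of the rule were not left out of the clustering. Moxd1, Cldn1, Krt19 and Slc6a13 of the rule were among the leading genes of the cluster of 727 cells. The grouping can thus follow from the choice of members, and nothing is read from it.

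Clustered on their own, the members formed 4 sub-clusters, which are given by number and leading genes. Sub-cluster 1 held 151 WT and 34 Sod1KO cells, was led by Sptb and Galnt16, and had the highest sum of the 20 further myelin genes, at 23608 CPM. Sub-cluster 2 held 107 and 55 cells and was led by Ifit1, an interferon-induced gene, at 50.7 CPM against 7.40 CPM in other members. Sub-cluster 4 held 59 cells from each library, was led by Dnah12 and B3galt1, and had the highest sum of further perineurial genes, at 5507 CPM. Sub-cluster 3 held 26 WT and 92 Sod1KO cells and was the deepest, with a median of 30104 UMIs.

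Sub-cluster 3 stood apart by tendon and connective tissue genes. Scx, the tendon transcription factor, was at 78.3 CPM against 0.875 CPM in other members, and Fmod, the proteoglycan fibromodulin, was at 805 CPM against 17.9 CPM. The 8 tenocyte markers summed to 2117 CPM there and to 241, 298 and 270.0 CPM in sub-clusters 1, 2 and 4. Its macrophage markers summed to 487 CPM, and Lyz2 was at 344 CPM against 6.01 CPM in other members. The 12 markers of nonmyelinating Schwann cells summed to 1604 CPM there, against 503, 406 and 465 CPM in sub-clusters 1, 2 and 4. As these cells made up a larger part of the Sod1KO members, each comparison of the libraries below was repeated without them, on 317 WT and 148 Sod1KO cells.

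Between the libraries, 715 of 13358 genes with at least 20 UMIs in double-positive cells were at least 2-fold higher in Sod1KO (5.35%) and 341 at least 2-fold lower (2.55%). The median log2 ratio was 0.01. Without sub-cluster 3, 357 of 12405 genes were higher and 310 lower, and 249 and 166 of these were among the first counts. With 1 library per genotype, a difference between the mouse pools or the preparations cannot be told apart from one of genotype.

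Most genes of the myelin and perineurial lists were lower in the Sod1KO members, by less than 2-fold. Of 19 further myelin genes 14 had a log2 ratio below 0 (median -0.24), with 1 at least 2-fold higher and none lower. Of 12 further perineurial genes 9 were below 0 (median -0.43), with 1 at least 2-fold higher and none lower. Over all genes the shares at 2-fold were 5.35% higher and 2.55% lower. Without sub-cluster 3 the medians were -0.11 and -0.21. The lists stood lower in their own references as well. In myelin-only cells 16 of 19 further myelin genes were below 0 (median -0.24). In the perineurial reference 11 of 12 further perineurial genes were below 0 (median -0.52). Mbp was at 2115 CPM in WT and 1499 CPM in Sod1KO members, log2 -0.50 (-0.54 to -0.46). Drp2 was at 423 and 211 CPM, log2 -1.0 (-1.10 to -0.90), just under 2-fold, and without sub-cluster 3 at 445 and 295 CPM, log2 -0.59. The myelin gene that stood higher was Pmp2, a fatty acid binding protein of peripheral myelin, at 16.2 and 55.6 CPM, log2 1.78 (1.46 to 2.10). It was also higher in myelin-only cells, at 47.3 and 110.3 CPM.

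The genes of the rule are given as a description, since their detection chose the members and both references. Of the 8 myelin genes 7 had a log2 ratio below 0 (median -0.39), and none reached 2-fold. Lgals7, which encodes galectin-7, was at 117 CPM in WT and 668 CPM in Sod1KO double-positive cells, log2 2.51. The other 5 perineurial genes of the rule had log2 ratios between -0.51 (Slc6a13) and 0.01 (Crabp2). The difference in Lgals7 was not limited to members. In thinned cells Lgals7 was detected in 16.7% of WT and 56.6% of Sod1KO perineurial reference cells. These shares were 14.3% and 40.8% in double-positive cells, and 0.348% and 0.903% in myelin-only cells.

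Ptch1 stood lower in Sod1KO double-positive cells. It was at 515 and 315 CPM, log2 -0.71 (-0.79 to -0.63), and at 523 and 249 CPM in the perineurial reference, log2 -1.07 (-1.21 to -0.94). In myelin-only cells it was at 59.5 and 64.9 CPM, log2 0.12 (-0.06 to 0.31). Without sub-cluster 3 its ratio in members was -0.41 (-0.51 to -0.32). Of 11 hedgehog genes compared between the libraries, none was at least 2-fold higher (5.35% of all genes) or lower (2.55%).

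Genes of the injury-related repair Schwann cell stood higher in the Sod1KO members, in few cells. Of 9 compared, 5 were at least 2-fold higher (5.35% of all genes), with a median log2 ratio of 3.02. Without sub-cluster 3 this was 3 of 7 (2.88% of all genes), and the median was 0.30. Runx2, a transcription factor, was at 4.93 and 39.9 CPM, log2 3.02 (2.49 to 3.58), with a UMI in 8.16% and 28.3% of cells. Gap43, a growth cone protein, was at 1.89 and 24.7 CPM, log2 3.71 (2.89 to 4.66), in 1.17% and 15% of cells. Btc, the EGF family ligand betacellulin, was at 2.03 and 19.6 CPM, log2 3.27 (2.47 to 4.19). These 3 genes stood higher in both references as well, with Runx2 at 18 and 148 CPM in the perineurial reference and 7.68 and 55.6 CPM in myelin-only cells. Without sub-cluster 3 their log2 ratios were 1.56, 2.87 and 2.73.

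Spp1, which encodes the matrix cytokine osteopontin, was at 53.7 CPM in WT and 139.5 CPM in Sod1KO double-positive cells, log2 1.38 (1.20 to 1.56). It was detected in 28.9% and 44.6% of members. In myelin-only cells it was at 328 and 616 CPM, and in the perineurial reference at 30.8 and 28.1 CPM. The level in members was thus between the references in both libraries. Its receptor Cd44 was at 26.4 and 73.2 CPM, log2 1.47 (1.22 to 1.73). Without sub-cluster 3 the log2 ratios of Spp1 and Cd44 were 1.47 and 1.56.

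Metallothioneins, which bind zinc and copper, stood lower in Sod1KO members. Mt1 was at 3219.7 and 1794 CPM, log2 -0.84 (-0.88 to -0.81), and Mt2 at 658 and 326 CPM, log2 -1.01 (-1.09 to -0.93). Both stood lower in the references as well, with Mt2 at 986 and 510.2 CPM in myelin-only cells and 483 and 242 CPM in the perineurial reference. Of 20 antioxidant genes compared, 1 was at least 2-fold lower, Mt2, and 1 at least 2-fold higher, Slc7a11. Over all genes these shares were 2.55% and 5.35%, so nothing is read from the counts. Slc7a11, the cystine transporter, was at 2.18 and 15.5 CPM with 38.5% of its Sod1KO UMIs in a single cell. Without sub-cluster 3 Slc7a11 had 3 UMIs in WT and 2 in Sod1KO, too few to compare. Hmox1, heme oxygenase 1, was at 10.3 and 20.3 CPM, log2 0.98, and at 10.1 and 13 CPM without sub-cluster 3.

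**Figure D5:**
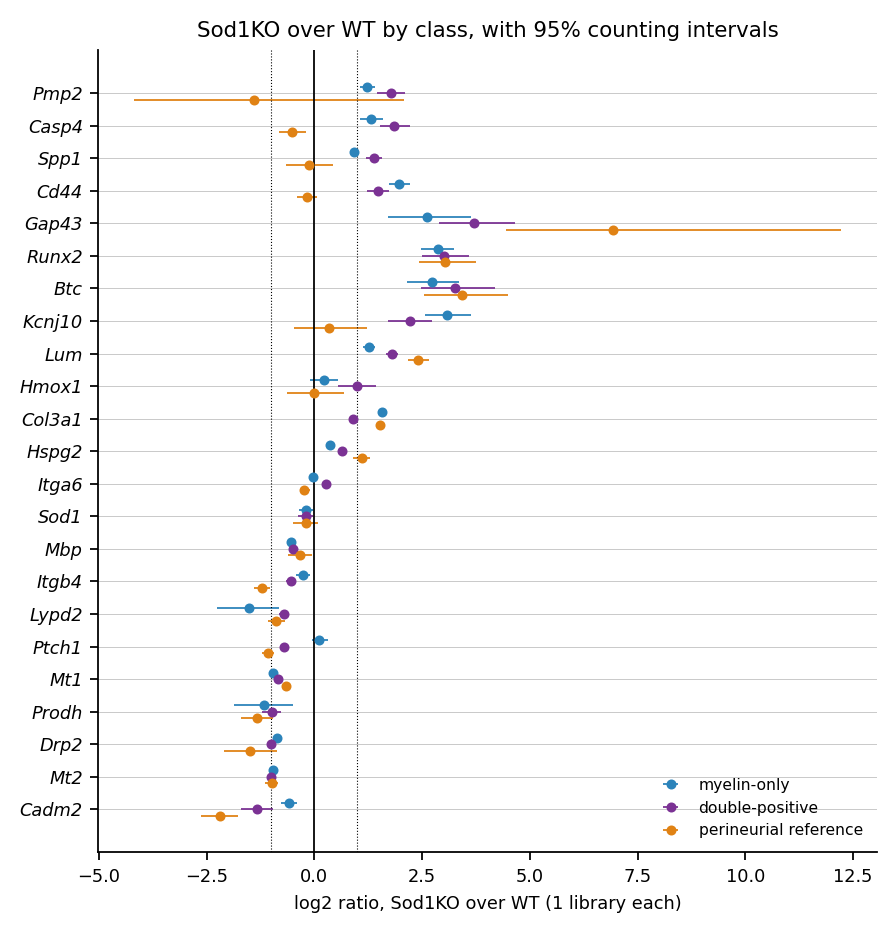
Log2 ratio of Sod1KO over WT for 23 genes in myelin-only, double-positive and perineurial reference cells, 1 library per genotype, with 95% counting intervals. The solid line marks equal levels and the dotted lines 2-fold. Cd44 stands at 1.47 and Mt2 at -1.01 in double-positive cells, and Ptch1 at -0.71 beside 0.12 in myelin-only cells.

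Some genes rested on few cells. All 8 cycling markers were at least 2-fold higher in Sod1KO members (5.35% of all genes), while 7 of the 8 had a log2 ratio below 0 in the perineurial reference. In members at least 4 of them were detected in 6 of 240 cells (2.50%) against 1 of 343 (0.292%). Mki67, a proliferation marker, had 10 UMIs in 1 WT cell and 101 UMIs in 11 Sod1KO cells. Of 8 macrophage markers 7 were at least 2-fold higher (5.35% of all genes), with at least 4 of them in 6 Sod1KO cells and in 0 of 343 WT cells. Without sub-cluster 3, 2 of 5 macrophage markers compared and 6 of 6 cycling markers were at least 2-fold higher (2.88% of all genes). A single cell then held 90% of the 40 Sod1KO UMIs of Mki67, a single cell 91.2% of those of Top2a, and a single cell all 48 of those of Ube2c.

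By the distance of the counting interval from 0, the genes highest in Sod1KO members were immune genes in a few cells. They were the chemokines Ccl4 and Ccl3, the antigen presentation genes Cd74, H2-Aa and H2-Eb1, the complement genes C1qa, C1qb and C1qc, and Tyrobp and Tnip3. They had UMIs in 3 to 21 Sod1KO cells, and the cell with most UMIs gave 40.8% to 82.9% of a gene's sum. Cd74 had 5 UMIs in 5 WT cells and 632 UMIs in 21 Sod1KO cells. At the other end stood Unc80, Gpha2, Gm17657, Gm20468, Gm41555, Cyp26a1, Ifi205, Acsbg1, Tinagl1 and Sfrp4. Of these, Gpha2 had 124 UMIs in 3 WT cells, 90.3% of them in 1 cell, and Tinagl1, which was found in the most cells of this group, had 228 UMIs in 32 WT and 45 in 21 Sod1KO cells. Without sub-cluster 3, 4 of the 10 higher and 2 of the 10 lower genes were named by the same rule.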

How the data were processed

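The data used here were 4 single-cell 3′ RNA libraries of the study, 1 per genotype and GFP sort. Per the labels, the authors aligned reads with Cell Ranger (7.1.0) and worked in Seurat (4.30), and they deposited raw UMI counts per gene and cell. The genome build differs between the sources, so no coordinates are given. From these counts, barcodes with more than 200 genes and under 10% mitochondrial UMIs were kept, which are the study's cutoffs. The study also removed ambient RNA and doublets, and neither step was taken here for the main values. Classes were formed by the rule, UMIs were summed per class and library, and CPM is counts per 1000000 UMIs of that sum. Ratios have conditional binomial intervals, and a class at 0 is set to a floor of 3 UMIs. With 1 library per group no test was run, and a gene was counted from 2-fold.

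The members and gene lists were chosen with earlier results of these data known. Genes named outside the lists were the first 10 of rankings by ratio or by the interval bound nearest 0. Clusters came from 2000 variable genes, from which genes of the rule were not left out, 30 components and the Leiden method (leidenalg 0.10.2). The scripts were tested on simulated counts. Python 3.11.15, numpy 2.4.6 and scipy 1.17.1 were used. Some items are not reported here.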

Additional observations from a re-analysis of the deposited data

Results flagged for a closer look

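For 10 of the genes ranked by their difference between the libraries, the Sod1KO over WT ratio in another class lay on the other side of 0 from that in double-positive cells, with neither counting interval reaching 0. The difference between classes was not tested, and each gene rests on few double-positive cells. Among genes higher in Sod1KO double-positive cells, the log2 ratios of Cd74, H2-Aa and H2-Eb1 were -0.59, -0.93 and -1.04 in myelin-only cells and -2.96, -2.79 and -2.22 in perineurial reference cells. Ccl3 and Tyrobp were both at -3.39 and Tnip3 at -6.05 in perineurial reference cells, of which WT had 61. Among genes lower in Sod1KO double-positive cells, Gpha2, Cyp26a1, Ifi205 and Sfrp4 were at 2.46, 1.11, 2.56 and 2.80 in myelin-only cells, and Ifi205 was at 2.82 in perineurial reference cells.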

How the results depend on the processing

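Of 309 values recomputed under another setting, 214 were labelled unchanged, 90 moved and 5 reversed. Unchanged meant inside the main counting interval, within the gap between libraries for list medians, or of similar size for gene counts. A reversal was labelled only for named genes, list medians of at least 2-fold and share differences whose interval left out 0. Other changes of sign are among the rest, such as 0.495 to -5.68 points for the share of myelin-gene cells without sub-cluster 3. Where no construction is named, the cause was not tested. No paired analysis was possible because each group has 1 library. Leaving out a library leaves nothing to compare. The settings without sub-cluster 3 and with perineurial reference cells of both sorts were chosen after seeing the data.

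The share of double-positive cells in GFP+ cells moved to 9.0% (WT) and 4.50% (Sod1KO) with over 500 genes and under 5% mitochondrial UMIs (difference -4.50 points), to 1.62% and 0.722% when cells were thinned to 2000 UMIs before the rule (-0.901), to 6.23% in WT with at least 4 perineurial genes, to 3.20% in Sod1KO with at least 0.2% myelin UMIs, and to 2.35% in Sod1KO without sub-cluster 3 (-4.30). The share of myelin-gene cells moved to 33.2% and 44.4% (difference 11.3) under the stricter cell filter, which takes out more myelin-only cells since their mitochondrial share is higher. It moved to 5.33% and 5.18% after thinning, 19.8% in WT with at least 4 perineurial genes, and 15.8% in Sod1KO without sub-cluster 3 (-5.68).

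Genes higher in Sod1KO double-positive cells numbered 383 after thinning, 1465 from 5 UMIs, 228 from 100 UMIs and 357 without sub-cluster 3. Genes lower numbered 847 from 5 UMIs and 80 from 100 UMIs. Genes higher than both references numbered 5 with no filter on low values. Genes lower than both numbered 5 under the stricter cell filter, 3 after thinning, 17 with at least 0.2% myelin UMIs, 26 with 5% ambient RNA subtracted, 0 by the mean of per-cell CPM, 52 with no filter, 0 with stricter references, 125 without sub-cluster 3 and 17 with reference cells of both sorts.

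The median log2 ratio of the myelin list to myelin-only cells, -1.19 in WT and -1.13 in Sod1KO, moved to -1.31 and -1.27 without the highest doublet scores, -1.12 and -0.85 under the stricter cell filter, -1.03 and -0.98 after thinning, -1.28 and -1.34 by per-cell CPM, -1.26 and -1.23 with stricter references, and -1.13 and -0.99 without sub-cluster 3. It was -1.12 in WT with at least 4 perineurial genes and -1.20 in Sod1KO with median-of-ratios scaling. The perineurial list against its reference moved to -0.25 (thinned), -0.45 (per-cell CPM) and -0.71 (stricter references) in WT, and to -0.42 (stricter references), 0.63 (without sub-cluster 3) and -0.34 (both sorts) in Sod1KO.

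Among 20 named genes, 136 of 177 values stayed, 36 moved and 5 changed sign. Gm20468 was at 0.13 after thinning, Gpha2 at 1.42 without the highest doublet scores and 1.78 without sub-cluster 3, and Ifi205 at 0.00 and Tinagl1 at 0.08 without the highest doublet scores. Depth limits genes of few UMIs, whose UMIs often came mostly from 1 cell.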
